A study of Homo sapiens with 8 samples.

Results

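The genes described here are 10 genes of the YAP and TEAD pathway: the co-activators YAP1 and WWTR1, the transcription factors TEAD1 and TEAD4, the target genes CCN1, CCN2, ANKRD1 and AXL, and the feedback inhibitors AMOTL2 and LATS2. They were taken by symbol from the authors' deposited table of transcript stability, in which each row is a transcript accession. RefSeq gives CCN1 and CCN2 as the current symbols of CYR61 and CTGF. All 10 genes were found, on 11 accessions, out of 19468 genes that could be named on 22411 of the table's 39745 accessions. TEAD4 had 2 accessions and each other gene had 1.

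The study compared MDA-LM2 cells, a lung-metastatic line derived from the human breast cancer line MDA-MB-231, in 4 groups of 2 arrays. The groups were TARBP2 knock-down cells at 0 h without drug, TARBP2 knock-down cells after 18 h of alpha-amanitine at 10 µM, and control cells (siControl) at the same 2 points. In each knock-down group, 1 array carried RNA of siTARBP2-1 cells and 1 that of siTARBP2-2 cells, and all cells were transfected with Lipofectamine 48 h before the drug was added. The series text calls the comparison cells mock-transfected where the sample titles name a control siRNA, and nothing in the labels says that the control arrays came from separate cultures. TARBP2 binds double-stranded RNA and works with Dicer. Alpha-amanitine blocks RNA polymerase II, so the RNA that remains after 18 h reflects how long each transcript of that polymerase lasts. This holds only where the transcript is still detected.

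YAP1 and WWTR1 (also called TAZ) carry the output of the Hippo pathway. When the kinases LATS1 and LATS2 are active, they phosphorylate both proteins, which are then kept in the cytoplasm or degraded. When the kinases are inactive, YAP1 and WWTR1 enter the nucleus, bind TEAD factors, which supply the DNA contact, and switch on genes of growth, adhesion and matrix. MDA-MB-231 cells are known for high YAP and TAZ activity and for a loss of the upstream inhibitor NF2. Transcripts of CCN1 and CCN2 belong to the immediate-early genes and are known to be short-lived.

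The arrays did not give values for these genes, because the probes carry no gene names in the sources used here. The level of TARBP2 and the markers of the cell line were therefore not read either. Nor is it known whether a named gene was detected, which includes the short-lived CCN1 and CCN2 after 18 h. Of the 47321 probes, 18664 were detected in at least 2 arrays. A ratio from signals near the array background may not reflect stability. What is known for each accession is 1 log2 ratio of transcript stability, siTARBP2 over siControl, and the authors' class, background or stabilized, with no replicates, error or test. By its column name, a positive ratio stands for higher stability in knock-down than in control cells, relative to other transcripts if the arrays were normalized first. The ratio comes from bulk RNA, so a change in every cell and a change in some of the cells cannot be told apart. In the authors' deposited table, the class is a single threshold on the ratio at 1.25-fold (0.32 on the log2 scale). The same distance below, at 0.8-fold, was used here to describe lower ratios, for which the authors' deposited table has no class. The 2 TARBP2 accessions had log2 ratios of -0.12 and 0.12 in the authors' deposited table, which do not give the level of the gene.

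Of the 10 genes, 3 lay above 1.25-fold in the authors' deposited table, namely WWTR1, CCN1 and TEAD4 (as the mean of its accessions), against 8.76% of all named genes. AMOTL2 alone, 1 of 10, lay below 0.8-fold in the authors' deposited table, where 5.39% of all named genes did. The 10 genes had, in the authors' deposited table, a median log2 ratio of 0.14, beside 0.026 for all named genes, and 8 of the 10 were positive against 55.3% of named genes. Counted by accession, 3 of 11 were classed as stabilized in the authors' deposited table, against 8.45% of all its accessions, and 1 of 11 lay below 0.8-fold, against 6.31%. With so few genes these counts describe the genes and show nothing particular to the pathway.

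**Figure D1:**
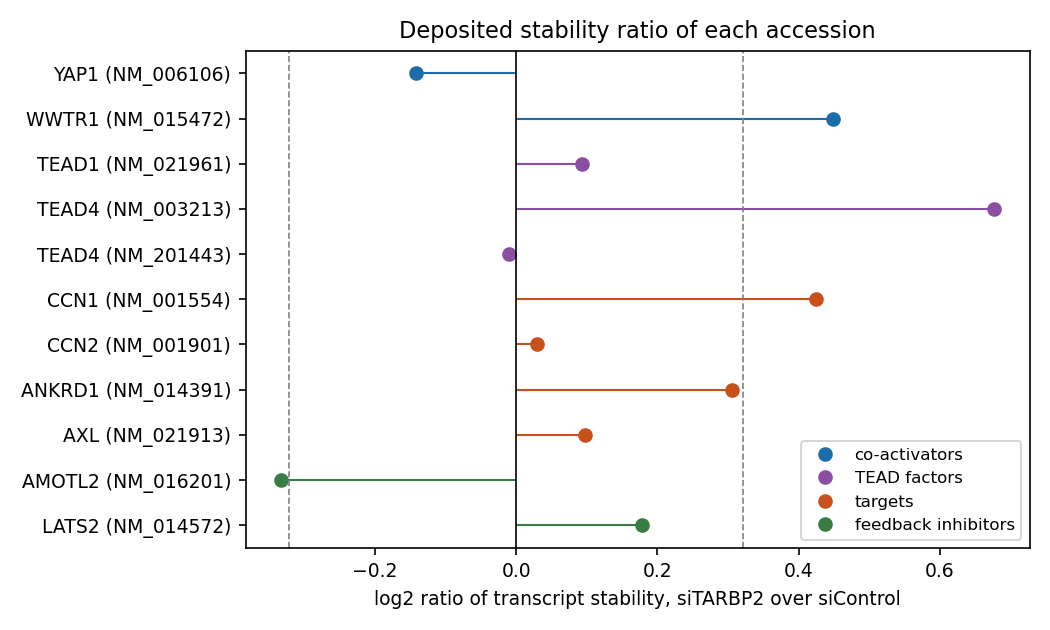
Log2 ratio of transcript stability, siTARBP2 over siControl, for each accession of the 10 genes in the authors' deposited table, coloured by role. Dashed lines mark 1.25-fold and 0.8-fold. The 3 points right of the upper line are WWTR1, TEAD4 on 1 of its 2 accessions and CCN1, and AMOTL2 is the only point left of the lower line.

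The co-activators stood on opposite sides of 0, but YAP1 lay within the median standard error of the array probes (0.148, described below). Its side of 0 is therefore not shown to be resolved. WWTR1 had, in the authors' deposited table, a log2 ratio of 0.45 (1.37-fold, classed as stabilized), the highest gene value among the 10 genes. YAP1, its paralog, had -0.14 in the authors' deposited table (0.906-fold, background), the second lowest. WWTR1 exceeded YAP1 by 0.59 on the log2 scale, a 1.51-fold distance between the paralogs' ratios in the authors' deposited table. WWTR1 lay at the 96.7th percentile of all named genes and YAP1 at the 20.4th in the authors' deposited table. RefSeq lists 4 curated mRNAs of WWTR1 and 9 of YAP1, and the table holds 1 accession of each, so other transcript forms of both genes were not analysed here.

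The TEAD factors bind the motif GGAATG through a shared DNA-binding domain. TEAD1 had, in the authors' deposited table, a log2 ratio of 0.093 (1.07-fold, background). TEAD4 had 0.68 on NM_003213 in the authors' deposited table (1.60-fold, stabilized), the highest of the 11 accessions. On its other accession, NM_201443, TEAD4 stands in the authors' deposited table at a log2 ratio of -0.010 (0.993-fold, background). The mean of the 2 TEAD4 accessions was 0.33 in the authors' deposited table (1.26-fold), just past the threshold, and it rests on NM_003213 alone. RefSeq lists 3 curated TEAD4 mRNAs, and the table holds 2 of them.

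The distance of 0.69 between the TEAD4 accessions is large for this table. Among 2131 genes with 2 accessions in the authors' deposited table, the median distance between them was 0.20 and the 95th percentile 0.61. A distance at least as large as that of TEAD4 was seen for 64 of those genes (3.0%) in the authors' deposited table. No gene among the 2131 had the same value on both accessions. Of the 2500 genes with more than 1 accession, 452 had accessions on both sides of the class threshold in the authors' deposited table, TEAD4 among them. For the 9 other genes of the pathway set, no second accession was there to set beside the value.

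**Figure D2:**
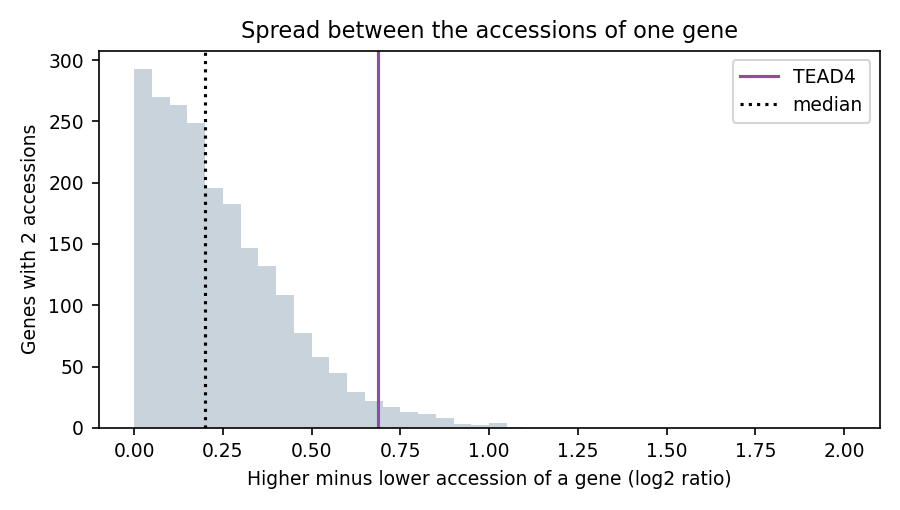
Distance between the higher and the lower log2 ratio for 2131 genes with 2 accessions, as counts of genes per bin. The dotted line marks the median of 0.20 and the solid line TEAD4 at 0.69, in the right tail.

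The 4 target genes had positive ratios of differing size, where 55.3% of all named genes were positive. CCN1 encodes a secreted matrix-associated protein that binds integrins, and had, in the authors' deposited table, a log2 ratio of 0.42 (1.34-fold, stabilized). CCN2, its close relative and a widely used readout of YAP activity, had 0.030 in the authors' deposited table (1.02-fold, background), near the middle of all named genes at the 50.8th percentile. CCN1 exceeded CCN2 by 0.39 on the log2 scale in the authors' deposited table. ANKRD1 encodes a nuclear and sarcomeric ankyrin-repeat protein. The authors' deposited table gives it a log2 ratio of 0.31 (1.24-fold, background), just under the class threshold. AXL, a receptor tyrosine kinase for the ligand GAS6, had 0.097 in the authors' deposited table (1.07-fold, background). The 4 target genes thus ran from 0.030 to 0.42 in the authors' deposited table. Of them, 1 of 4 was classed as stabilized, against 8.45% of all accessions.

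The feedback inhibitors, which YAP and TEAD switch on and which then restrain YAP, stood apart from each other. AMOTL2, an angiomotin-family scaffold that holds YAP1 at junctions and in the cytoplasm, had, in the authors' deposited table, a log2 ratio of -0.33 (0.794-fold), the lowest of the 10 genes and at the 4.95th percentile of named genes. LATS2, the kinase, had 0.18 in the authors' deposited table (1.13-fold, background). Its paralog LATS1 had nearly the same value, which the authors' deposited table gives as 0.18 on the log2 scale, and LATS2 minus LATS1 was -0.0060.

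**Figure D3:**
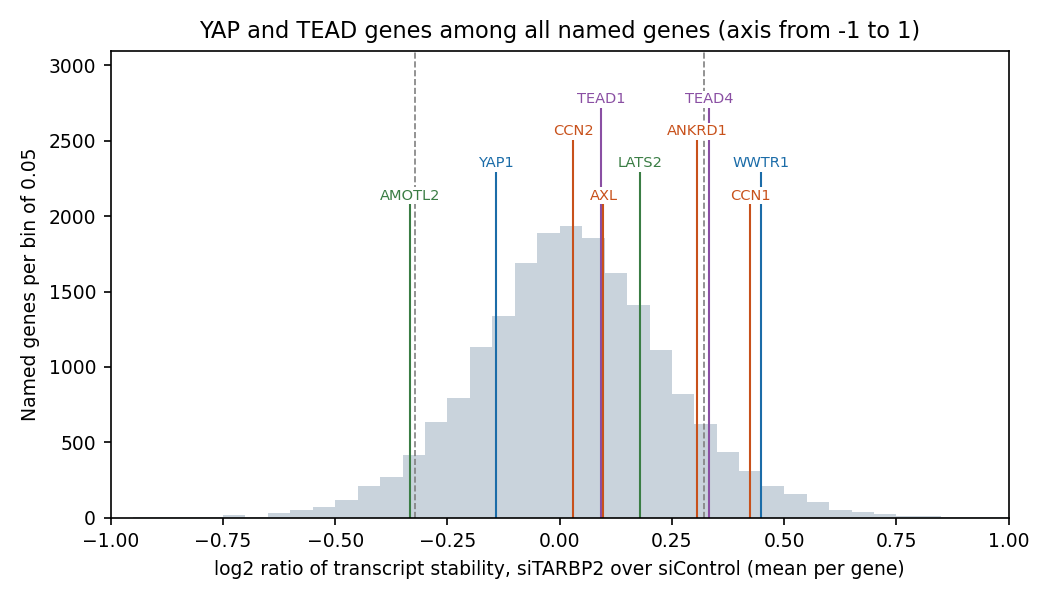
Histogram of the mean log2 ratio of transcript stability per gene for the named genes (horizontal axis cut at -1 and 1; counts per bin of 0.05), with the 10 genes marked by vertical lines coloured by role and dashed lines at 1.25-fold and 0.8-fold. WWTR1 and CCN1 lie in the right shoulder at 0.45 and 0.42, AMOTL2 in the left at -0.33, and CCN2 near the centre at 0.030.

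What sequence the genes share was looked at in their promoters, since YAP is known to act on its targets through TEAD sites. Sites farther from the gene start were not searched. The sequences are RefSeq's for GRCh38.p14, from 250 bases before to 50 after each gene start, and cover 7 of the 10 genes on 10 starts. TEAD1, TEAD4 and CCN1 are named only. The TEAD motif was searched as GGAATG on both strands (CATTCC where it lies on the strand opposite to the gene), and the AP-1 motif as TGANTCA, which reads the same on both strands; the searched motifs did not overlap. CCN2 and ANKRD1 are shown over the 250 bases before the start because they held more than 1 TEAD motif, with the motifs in capitals and the gene strand written 5′ to 3′. The capitals in ANKRD1 mark 2 TEAD motifs and, between them, the AP-1 motif.
CCN2 (chr6:131951373-131951622, minus strand): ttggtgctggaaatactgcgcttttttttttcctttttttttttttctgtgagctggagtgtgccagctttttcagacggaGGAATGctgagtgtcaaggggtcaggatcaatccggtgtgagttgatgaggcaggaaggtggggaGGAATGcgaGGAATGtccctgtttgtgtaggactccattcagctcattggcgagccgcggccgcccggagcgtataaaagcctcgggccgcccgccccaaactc
ANKRD1 (chr10:90921088-90921337, minus strand): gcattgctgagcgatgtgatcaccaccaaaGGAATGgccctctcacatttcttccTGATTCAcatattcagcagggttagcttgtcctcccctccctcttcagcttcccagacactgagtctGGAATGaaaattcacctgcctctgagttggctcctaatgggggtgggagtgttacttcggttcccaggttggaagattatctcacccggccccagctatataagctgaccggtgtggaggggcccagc

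In CCN2 the 3 TEAD motifs began 169, 104 and 95 bases before the start, all on the gene strand. Only 0.128% of the 35116 promoters in the table held 3 or more. In ANKRD1 they began 220 and 128 bases before the start, and the AP-1 motif 195 bases before it; 1.37% of all promoters held 2 or more TEAD motifs. A single TEAD motif was found in 4 other genes, shown as windows of 30 bases around the motif to let the flanks be compared.
YAP1 (chr11:102110273-102110302, plus strand): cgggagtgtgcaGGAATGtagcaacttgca
AXL (chr19:41226531-41226560, plus strand): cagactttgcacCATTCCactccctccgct
AMOTL2 (chr3:134374499-134374528, minus strand): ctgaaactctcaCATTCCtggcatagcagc
LATS2 (chr13:21061560-21061589, minus strand): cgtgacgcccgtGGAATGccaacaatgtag

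In YAP1 the motif began 162 bases before the start, and in AXL and AMOTL2 it lay on the opposite strand at their other listed start, 212 and 69 bases before it. In LATS2 it began at base 10 of the transcript. In WWTR1 these letters were in neither of its windows. In all, 6 of 10 promoter windows held a TEAD motif, against 14.0% of all promoters, and 1 of 10 held the AP-1 motif, against 7.71%. In the authors' deposited table, CCN2, with 3 TEAD motifs, had a log2 ratio of 0.030 and ANKRD1, with 2, had 0.31. WWTR1, with none found, had 0.45 there. With 1 motif each, YAP1 had -0.14, AXL 0.097, AMOTL2 -0.33 and LATS2 0.18 in the authors' deposited table. Whether the ratios follow the number of motifs was not tested, since so few genes cannot decide it. A match describes the letters in the window and is not evidence that a TEAD factor binds there.

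**Figure D4:**
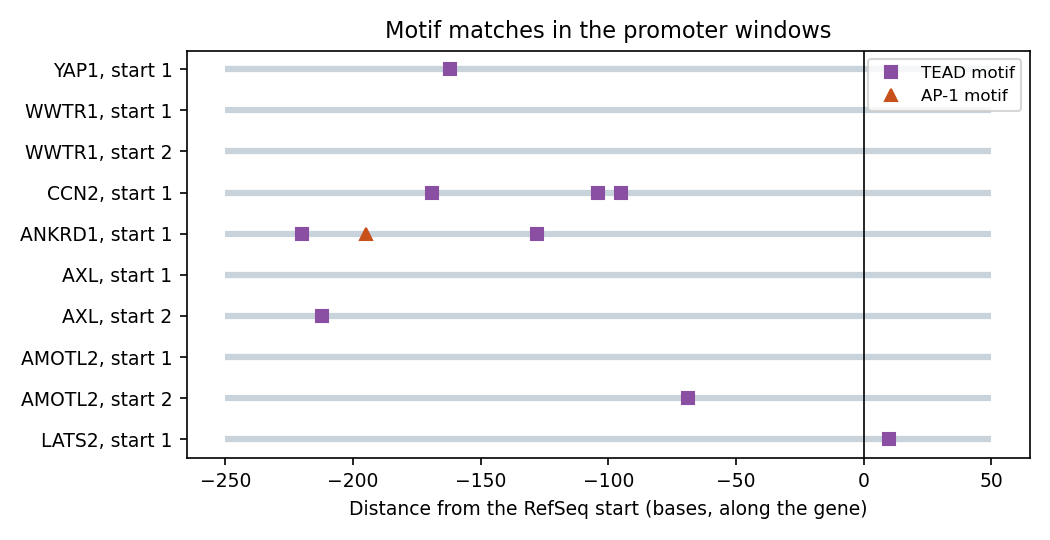
Position of TEAD motifs (squares) and AP-1 motifs (triangles) in the promoter windows of 7 genes, as the distance in bases from the RefSeq start (vertical line) along the gene. Each grey bar is 1 window, and starts are numbered where a gene has 2. CCN2 has 3 squares and ANKRD1 2 squares and a triangle.

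The size of the ratios can be set beside the spread of the study's arrays, although the probe behind each accession and the formula of the ratio are not known. In the authors' normalized array values, the stability difference (the 18 h change in knock-down cells minus the 18 h change in control cells) had a standard deviation of 0.236 on the log2 scale over 47321 probes, close to 0.227 for the ratios over the accessions of the authors' deposited table. In a limma fit of those values, with 2 arrays a group, the standard error of this difference had a median of 0.148 over the probes. A probe with that error has a 95% confidence interval of 0.33 to either side, and a probe at the 95th percentile of the errors one of 0.49. Of the 11 accessions in the authors' deposited table, 4 lay farther than 0.33 from 0. They were TEAD4 on NM_003213, WWTR1, CCN1 and AMOTL2, the last by a margin of under 0.01. They are the same accessions that lay past 1.25-fold or below 0.8-fold. The width of 0.33 is close to that threshold of 0.32, so it is no separate check. Of all accessions in the authors' deposited table, 8.45% lay past 1.25-fold and 6.31% below 0.8-fold. TEAD4 on NM_003213 alone lay beyond 0.49, at the 99.6th percentile of all accessions. The widths of 0.33 and 0.49 are those of typical probes and not errors of the 11 ratios. They come from all 47321 probes, of which 18664 were detected in at least 2 arrays. On those 18664 probes, after background correction and normalization (neqc), the difference had a standard deviation of 0.366. Its standard error there had a median of 0.132 and a 95th percentile of 0.309, against a 95th percentile of 0.220 in the authors' values. A probe with an error of 0.309 has an interval wider than 0.49.

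Read the same way, the order of the genes is loose. From the top it ran WWTR1, CCN1, TEAD4, ANKRD1, LATS2, AXL, TEAD1, CCN2, YAP1 and AMOTL2 in the authors' deposited table. Of the 9 steps between neighbours, 7 were smaller than the median standard error of 0.148. The others were the step of 0.17 between CCN2 and YAP1 and that of 0.19 between YAP1 and AMOTL2, both in the authors' deposited table. The error of 0.148 is that of a probe's own difference, whereas a step carries the errors of both neighbours. Its error would be larger than 0.148 if those errors were independent, so these steps are not shown to be resolved either.

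Wider lists of the pathway held 72 further genes, all of which had a value. Of these, 6 lay above 1.25-fold and 4 below 0.8-fold in the authors' deposited table, or 8.33% and 5.56%, near the shares of all named genes (8.76% and 5.39%). The authors' deposited table gives them a median log2 ratio of 0.059, beside 0.026 for all named genes.

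The kinase core upstream of YAP had no gene past either threshold, where 8.76% of all named genes lay above and 5.39% below. Its 10 kinases and adaptors had, in the authors' deposited table, a median log2 ratio of 0.021. The lowest, MOB1B, an activating subunit of the LATS kinases, had -0.22, and the next lowest, STK3, a Hippo kinase, had -0.19 in the authors' deposited table.

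Scaffolds and junction regulators had a median of 0.13 in the authors' deposited table. There 3 of 14 genes lay above and 1 below, against 8.76% and 5.39% of all named genes. TJP1, a tight-junction scaffold, had 0.39 as the mean of 0.58 and 0.20 in the authors' deposited table, so only 1 of its accessions was classed as stabilized. LIMD1, a LIM protein that restrains LATS kinases, had 0.39 in the authors' deposited table. WWC2, a relative of KIBRA, had -0.35 in the authors' deposited table, close to AMOTL2. NF2 had a mean of 0.13 over 3 accessions in the authors' deposited table, at 0.33, 0.29 and -0.23.

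The other TEAD genes and the VGLL cofactors, which compete with YAP for TEAD, had the lowest median of the 6 lists, which the authors' deposited table puts at -0.23 on the log2 scale over 6 genes. The authors' deposited table puts 0 of them above 1.25-fold and 2 below 0.8-fold, against 8.76% and 5.39% of all named genes. The 2 below were TEAD3 at -0.36 and VGLL4 at -0.35. With 6 genes these counts show nothing particular to the list. TEAD2 had -0.18 in the authors' deposited table. VGLL2 had a mean of -0.22 over 2 accessions in the authors' deposited table, at 0.060 and -0.50, so the list median rests partly on split values. Across the 4 TEAD genes the log2 ratio in the authors' deposited table thus ran from -0.36 for TEAD3 to 0.33 for TEAD4.

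Regulators of YAP turnover had 0 of 11 gene means past either threshold in the authors' deposited table, against 8.76% of named genes above and 5.39% below. Among them were the 14-3-3 proteins that hold phosphorylated YAP1 and the ubiquitin ligase adaptors BTRC and FBXW11. The list median was 0.13, although 1 of 3 FBXW11 accessions was classed as stabilized at 0.44. At the top were the 14-3-3 genes YWHAE at 0.32 and SFN at 0.28 in the authors' deposited table. The lowest were 14-3-3 genes too, YWHAG at -0.078 and YWHAH at -0.038. All of them were classed as background there.

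Further target genes had a median of 0.034 in the authors' deposited table, where 13 of 23 were positive and 10 negative. Of the 23, 2 lay above and 1 below, against 8.76% and 5.39% of all named genes. DOCK5, an exchange factor for RAC, had a log2 ratio of 0.62, and THBS1, which encodes the matrix protein thrombospondin-1, had 0.45 in the authors' deposited table. EDN1, which encodes the peptide endothelin-1, had -0.33 in the authors' deposited table. Set beside these, the 4 targets among the 10 genes had a median of 0.20 in the authors' deposited table. A difference between the lists was not tested.

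Among 8 structural relatives of the 10 genes, the authors' deposited table puts 1 above and 0 below, against 8.76% and 5.39% of all named genes. TYRO3, a receptor of the same family as AXL, had, in the authors' deposited table, a log2 ratio of 0.41, 0.31 above AXL. MERTK, the third receptor of that family, had 0.079 in the authors' deposited table, 0.018 below AXL.

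**Figure D5:**
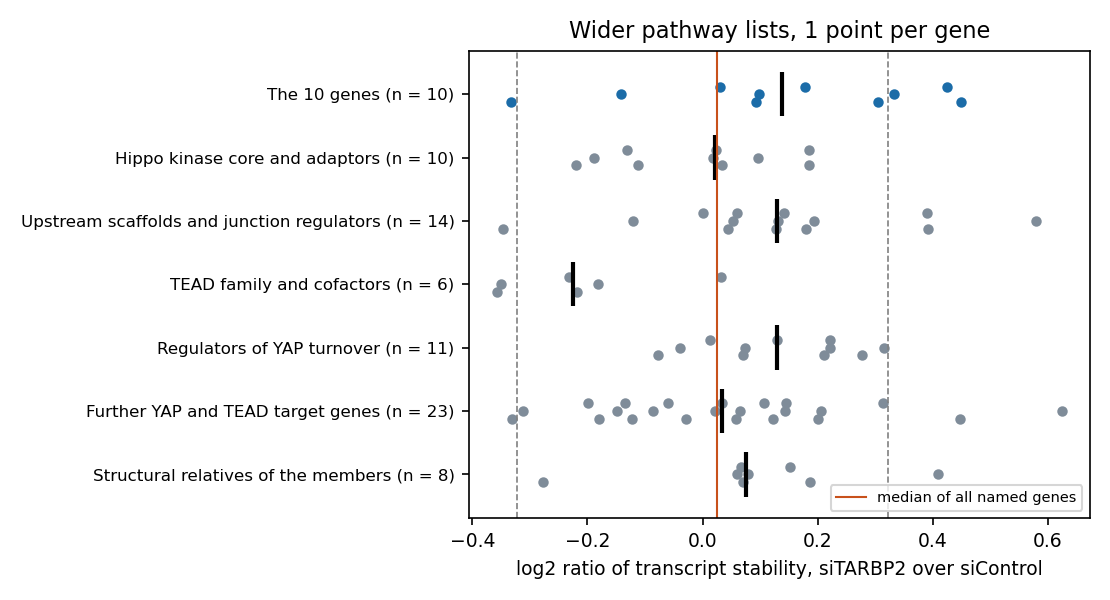
Log2 ratio of transcript stability per gene (points) for the 10 genes and for 6 wider pathway lists, with the median of each as a black bar and the median of all named genes as a vertical line. Dashed lines mark 1.25-fold and 0.8-fold. The TEAD family and cofactors have the lowest median, -0.23 over 6 genes, and their points overlap those of the other lists.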

How the data were processed

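The authors deposited non-normalized Illumina BeadChip probe signals (intensity) for 47321 probes on 8 arrays with detection p-values, per the file headers, and intensity values that the numbers show to be normalized between arrays. The tool lumi is named without a version in the submitters' processing notes. The authors deposited log2 ratios of transcript stability with a class per accession, per the file headers and with no formula (not given in the sources used here).

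Accessions without versions were matched to RefSeq symbols (GRCh38.p14 gene table, names only): 22411 of 39745 matched 1 symbol. A gene's value was the mean of its accessions (pandas 2.3.3). The named genes were all 10 genes and TARBP2, and of each list the genes past a threshold (at most 4 per direction), or otherwise the 2 farthest from 0. Members of lists named beside these (NF2, TEAD2, VGLL2, LATS1, FBXW11, YWHAG, YWHAH and MERTK) were chosen after their values were seen. A gene that the rule names is not reported here. The genes and lists were chosen with earlier results of these data known.

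The stability difference was fitted on all 8 arrays with limma 3.58.1 (R 4.3.3), both on the authors' values without a filter, which gave the standard errors, and after neqc (offset 16) on 18664 probes with detection p under 0.01 in at least 2 arrays. By the latter, 2089 probes (11.2%) passed a Benjamini-Hochberg adjusted p of 0.05, and 0 passed it with the replicate number within each arm as a block (lowest limma adjusted p 0.053, 5208 probes at an unadjusted p under 0.05); between 15541 and 17619 probes were detected per array. Nothing says that the control arrays came from separate cultures, so p-values cover only array-to-array spread, which may be technical, and the number of arrays limits the precision. The fit was also run on simulated data with independent noise, which cannot speak to a replicate block. Its first pass criterion was not met and was replaced, and no result here rests on it. The other planned array contrasts, the marker check and the protein comparisons were left out, since none gave a value for a named gene here.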

Additional observations from a re-analysis of the deposited data

How the results depend on the processing

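The counts of genes past the threshold were recomputed with 7 changes. At 1.5-fold, 0 of the 10 genes lay above and 0 below, and of the 72 wider genes 1 lay above and 0 below. Split at 0, 8 of the 10 genes were above and 2 below, and of the wider genes 48 and 24. With every accession counted singly, 10 accessions of the wider genes lay above. The remaining settings left each count within 1.5 times its value, but TEAD4 fell out with ratios centred on the median of all named genes (log2 ratio 0.31) or with the lower accession of each gene, which left 2 genes above.

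The 2089 array probes carry no gene names, so whether the genes named here are among them is not known. With arrays scaled by their median the count was 5195, with the median difference at 0.22 on the log2 scale. Of these, 4766 were higher and 429 lower in knock-down cells, against 1159 and 930. With no detection filter the count was 389. Without 1 array it ran from 132 to 1567: 360 or 366 without replicate 1 or 2 of knock-down at 0 h, 334 or 277 at 18 h, and 132 or 245 for control at 0 h. With a replicate block within each arm it was 0 (lowest limma adjusted p 0.053, 5208 probes at an unadjusted p under 0.05), and 1363 with a replicate block shared by both arms. Arrays of the same arm and number share a name at both times (siTARBP2-1 or siTARBP2-2, siControl-1 or siControl-2). The titles do not say whether the numbers stand for different siRNAs or for cultures. Arrays of different arms have no more than a number in common. Deviations from group means of same-numbered arrays correlated across probes at -0.035 to 0.026. A block for slide was not run, since no source used here gives it.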
